A study of Mus musculus with 6 samples.

Results

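Barcodes chosen as neutrophils made up 55 of the 16876 cell barcodes in 2 single-cell RNA-seq libraries of mouse lung. There were 33 in the library from mice given PBS repeatedly and 22 in the library from mice given bleomycin repeatedly. Of these 22, 6 also held at least 5 UMIs of 4 fibroblast genes. The whole series holds 33286 barcodes in 6 libraries. The cells were selected on measured values. A barcode was a member if it held at least 500 unique molecular identifiers (UMIs, each counting 1 captured RNA molecule), at least 10 UMIs of S100a8 and S100a9 together, at least 2 UMIs of Retnlg, Csf3r and Il1r2 together, and 0 UMIs of the T cell gene Cd3e and the B cell gene Cd79a. The levels of these 7 genes are therefore a description of the choice and not a result.

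Both libraries came from male PDGFRa-EGFP mice, a knock-in reporter strain in which cells that use the Pdgfra gene carry a green fluorescent protein, aged 10 to 14 weeks. One group received PBS and the other bleomycin, a DNA-damaging drug that injures the lung, by oropharyngeal aspiration of 50 µl once a week for 3 doses. The bleomycin doses were 1, 1 and 0.5 U/kg. Lungs of 3 mice per condition were taken 2 weeks after the last dose, digested and pooled, and GFP+ cells were collected by flow cytometry. Each condition is thus 1 library with no replicate check, no test between conditions was possible, and every 95% interval given here covers counting error only.

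Neutrophils are short-lived granulocytes that leave the blood for injured tissue, where they engulf microbes and debris, release granule enzymes and oxidants, and secrete signals that call in other leukocytes. S100a8 and S100a9 encode the subunits of calprotectin, the most plentiful protein of their cytosol. Csf3r is the receptor for the granulocyte growth factor G-CSF, Il1r2 is a decoy receptor that binds interleukin-1 without signaling, and Retnlg encodes a resistin-like protein secreted by granulocytes. Enzymes of the primary granules are transcribed early in the bone marrow and those of secondary granules later, and most of that transcription has stopped by the time a mature cell enters the blood.

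The sort selected for Pdgfra-driven GFP, a mark of fibroblasts that neutrophils are not known to carry. Pdgfra itself was found at 1 UMI in 1 of the 33 PBS members, and at 4 UMIs in the bleomycin members, all in 1 barcode. How the members came through the gate was not tested, also for these 2 barcodes.

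In PBS few barcodes lay near the thresholds. PBS members held 13 to 1109 UMIs of S100a8 and S100a9 together (median 259), and 3 to 112 UMIs of the other 3 genes (median 28). Of the 23 PBS barcodes that met the second threshold but not the first, 22 held no S100a8 or S100a9 at all and the highest held 5 UMIs. A single PBS barcode, with 12 S100 UMIs, met the first threshold but not the second. More barcodes lay near the edge in the bleomycin library, where members held 10 to 931 UMIs of the S100 pair (median 142.5). There, 7 of 22 members held 35 UMIs or fewer, against 1 of 33 for PBS. Just outside, 4 bleomycin barcodes met the S100 threshold but not the other (highest 31 UMIs), and 1 barcode with 34 S100 UMIs was left out for a UMI of Cd3e or Cd79a. Members held 99.0% of all S100a8 and S100a9 UMIs in the PBS library and 92.0% in the bleomycin library.

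**Figure D1:**
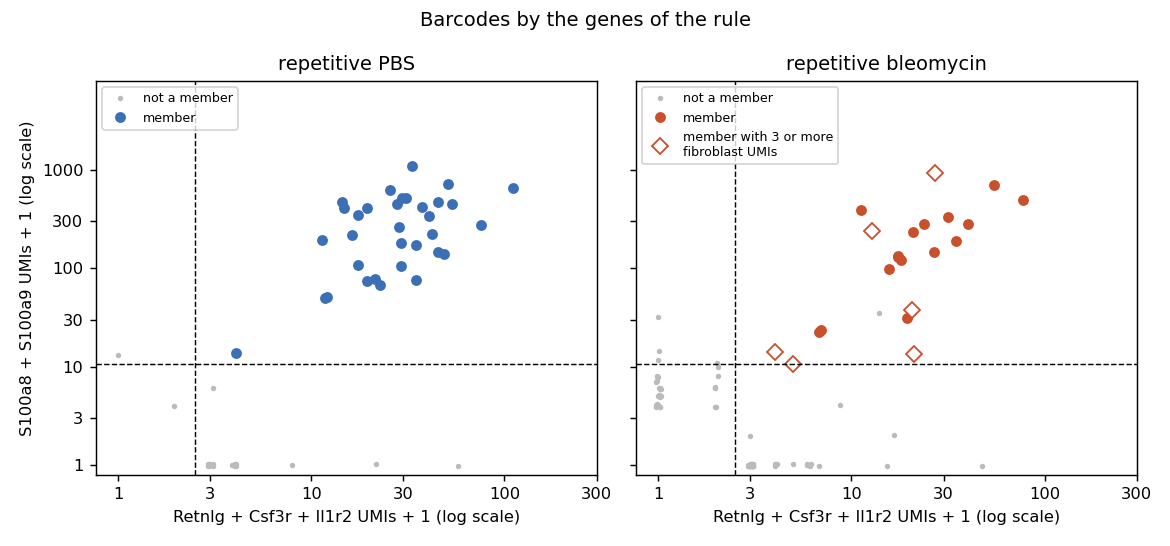
Each point is 1 barcode of the repetitive PBS (left) or repetitive bleomycin (right) library with at least 3 UMIs of S100a8 and S100a9 or at least 2 UMIs of Retnlg, Csf3r and Il1r2. Axes are UMIs plus 1 on log scales with slight jitter, dashed lines are the thresholds, colored circles are members, diamonds are members with at least 3 UMIs of Pdgfra, Col1a1, Col1a2 and Col3a1, and gray points are other barcodes. Of the members, 1 of 33 in PBS and 7 of 22 in bleomycin lie at 35 S100 UMIs or fewer, near the gray points.

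S100a8 and S100a9 lie beside each other on chromosome 3 (90668978 to 90670035 on the plus strand and 90692632 to 90695721 on the minus strand, GRCm38). Their levels moved together from cell to cell, with a Spearman coefficient across members of 0.897 in PBS (n = 33) and 0.959 in bleomycin (n = 22). These coefficients are descriptive, since both genes were part of the choice and share each barcode's depth. S100a9 exceeded S100a8 in all 33 PBS members and in 18 of 22 bleomycin members, with a median S100a8 to S100a9 ratio of UMIs of 0.639 and 0.567.

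The members were small libraries in themselves. PBS members held 546 to 4940 UMIs (median 3510) and bleomycin members 629 to 20073 (median 3157), while the median over all barcodes was 10178 in the PBS library and 2478 in the bleomycin library. Mitochondrial genes supplied a median of 0.171% of a PBS member's UMIs and 0.325% of a bleomycin member's. Summed over cells, the mitochondrial share was 0.218% in PBS neutrophils, against 2.85% in macrophages and monocytes, 3.46% in T cells and 3.04% in fibroblasts of the same library. In bleomycin it was 1.78% in neutrophils and 3.28% to 3.77% in the other 3 groups. A single bleomycin member, with 4334 UMIs and none of the 4 fibroblast genes used below, reached 12.3%, and the next 4.28%. The 2 libraries shared 28 barcode names, none of which was a member. No doublet caller was run.

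In all, 6 bleomycin members held more fibroblast RNA than any PBS member by a count of 4 genes, which bears on every comparison below. These 6 barcodes held 5 to 193 UMIs of Pdgfra, Col1a1, Col1a2 and Col3a1 together, and no PBS member reached 3. The deepest, with 20073 UMIs and 5434 genes, held 803 UMIs of Mgp, a matrix protein gene of lung fibroblasts, and drew 6.11% of its UMIs from 12 fibroblast marker genes. The second, with 6778 UMIs, drew 3.05% from them and held 103 UMIs of the complement gene C3 beside only 12 UMIs of the S100 pair. Another 2 drew 4.92% and 3.40%, but the last 2 drew 0.657% and 0.292%, within the range of PBS members (0% to 0.733%). All 6 are called the mixed barcodes below, a name for the count of 4 genes that does not mean each was a mixture. Together the 6 held 37790 of the 84692 UMIs of the bleomycin members, so that the 16 low-fibroblast members supplied 55.4% of the total. Among these 16, 1 barcode of 636 UMIs still drew 2.52% from the fibroblast markers. The filter on 3 UMIs thus did not follow that share exactly. With a filter at 1% of UMIs from the fibroblast markers instead, chosen after the data were seen, 17 bleomycin members stayed, and the NF-κB list was 0.51, the cytokine list 0.55, Ptgs2 1.39 and Wfdc17 -2.45, against 0.52, 0.52, 1.30 and -2.46 with the 3 UMI filter, on the log2 scale of bleomycin over PBS described below. Lyz2 was -0.64 against -1.24. Over all members, fibroblast markers made up 0.190% of UMIs in PBS and 2.05% in bleomycin (0.782% without the deepest member). In T cells, another group that should lack them, the shares were 1.68% and 3.70%. Values are therefore given for all members and, where they differ, for the 33 PBS and 16 low-fibroblast bleomycin members.

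**Figure D2:**
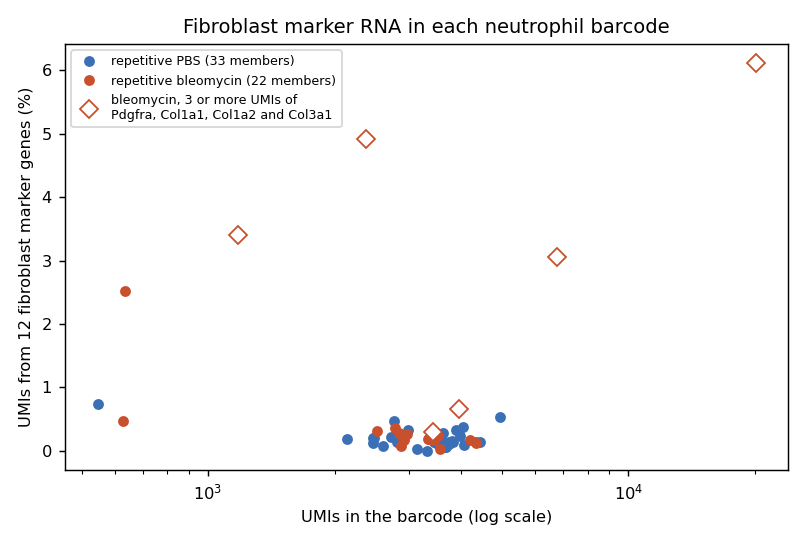
Each point is 1 neutrophil barcode, with its UMIs on a log axis and the percent of them that came from 12 fibroblast marker genes. Diamonds mark the 6 bleomycin members with at least 3 UMIs of Pdgfra, Col1a1, Col1a2 and Col3a1, of which the deepest reached 20073 UMIs and 6.11%.

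The members had the transcripts of mature neutrophils. None of 5 primary granule genes (Mpo, Elane, Prtn3, Ctsg and Ms4a3) had a single UMI in either library, where 0 counts allow up to 3 UMIs. Of the secondary and tertiary granule list, Ngp had 1 UMI, Ltf 2 and Camp none over all 55 cells. Other genes of that list were seen, Lcn2 in 17 of 33 PBS and 8 of 22 bleomycin members and Mmp8 in 12 and 9. The whole list held 621 and 293 UMIs. The division genes Mki67, Top2a and Cdk1 were also at 0. Ly6g, the antigen by which mouse neutrophils are usually stained, had only 2 UMIs, both in 1 bleomycin barcode. Of the markers not used in the choice, Hdc, the histidine decarboxylase that makes histamine, had a UMI in 32 of 33 PBS and 21 of 22 bleomycin members. Mmp9, a gelatinase of tertiary granules, had one in 31 and 18, and Cxcr2, the receptor for chemokines of the CXCL2 family, in 28 and 20. As a guide to background, Cxcr2 had no UMI in any of 118 PBS or 85 bleomycin T cells, whose median depths were 3836 and 5134 UMIs.

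The genes that stood out most against the other cells were of the same kind. Taking the smallest log2 ratio over macrophages and monocytes, T cells and fibroblasts of both libraries, the highest were Hdc at 7.56, Acod1, which makes the metabolite itaconate, at 6.71, Cxcr2 at 5.84, the arginase gene Arg2 at 5.70 and Mmp9 at 5.64. Il1b, the interleukin-1β gene, ranked 24 at 3.94. These ratios follow in part from the choice of cells and are a description.

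Markers of other blood cells were almost absent. NK cell, platelet and erythrocyte lists had 0 UMIs in both libraries, and the T cell, dendritic cell, mast cell and eosinophil lists had at most 1 in each. B cell markers had 6 and 5 UMIs, and all of these were Ighm. The rule itself required 0 UMIs of Cd3e and Cd79a, so the T cell and B cell values are in part a description of the choice. Plasma cell markers had 3 UMIs in PBS and 15 in bleomycin, endothelial markers 12 and 10, and epithelial markers 14 and 11. Among macrophage markers, C1qa, C1qb, Mrc1 and Marco were at 0 in both. The summed macrophage list was 47 UMIs in PBS and 130 in bleomycin, of which Apoe, also a fibroblast product, supplied 16 and 110. The monocyte list held 129 and 100 UMIs, of which Nr4a1, a gene of the early activation response, supplied 106 and 72.

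Neutrophils were a smaller share of the sorted cells after bleomycin. They were 33 of 6139 PBS barcodes, or 0.538% (exact Clopper-Pearson 95% interval 0.370% to 0.754%), and 22 of 10737 bleomycin barcodes, or 0.205% (0.128% to 0.310%). The intervals did not overlap, and the low-fibroblast members alone were 0.149% of bleomycin barcodes. Because the sort was for GFP, these are shares of sorted barcodes and not of lung leukocytes. Counted against barcodes with a UMI of the leukocyte genes Ptprc, Tyrobp or Laptm5, the shares were 9.09% (33 of 363) and 1.84% (22 of 1194). The neutrophil, macrophage and T cell groups together held 216 and 298 barcodes, against 363 and 1194 in this denominator, and the part of stray UMIs in it was not tested. T cells also made up a smaller share of all barcodes, 118 in PBS (1.92%) and 85 in bleomycin (0.792%). Macrophages and monocytes went the other way, from 65 (1.06%) to 191 (1.78%), so that there were 50.8 neutrophils per 100 of them in PBS and 11.5 in bleomycin. The same rule found 3 of 1060 and 2 of 1015 barcodes in the PBS and bleomycin libraries of the single-dose experiment. In the organoid libraries it found 0 of 5441, which at 3 counts allows a share of up to 0.0551%, and 1 of 8894, a barcode of 250878 UMIs.

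The members of 1 library were far from uniform. Retnlg ranged from 0 to 99 UMIs in PBS (median 4) and from 0 to 52 in bleomycin (median 2.5), with no UMI in 5 of 33 and 8 of 22 members. Csf3r was found in every member, at 2 to 25 UMIs in PBS (median 6) and 1 to 10 in bleomycin (median 5.5). Both genes were part of the rule and their UMIs were not scaled for depth, so these ranges only describe the members chosen. Stfa2l1, a stefin-type protease inhibitor, had 63 and 35 UMIs confined to 9 members of each library. Cstdc4, of the same family, had 39 and 49 UMIs in 5 members of each. In the other members neither was detectable at this depth.

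For the comparison of conditions, UMIs were summed over the members of each library, converted to CPM, which scales both libraries to the same total, and compared as the log2 ratio of bleomycin over PBS with 10 CPM added to both. Sums over a list had nothing added and left out the 5 genes the rule counts. A ratio of 1 or more was called higher and of -1 or less lower, among genes with at least 20 UMIs. Over all members 203 of 1598 genes were called higher (12.7%) and 163 lower (10.2%), with a median ratio of -0.20. Centered on that median, 255 were higher and 91 lower. Without the deepest member of each library, 112 of 1396 were higher (8.02%) and 105 lower (7.52%). With only the low-fibroblast bleomycin members, 80 of 1284 were higher (6.23%) and 84 lower (6.54%), and the median was 0.00. Of the 203 higher calls only 33 were shared with this last set, and of the 163 lower calls 59 were. In that set mitochondrial genes were among the highest ratios, mt-Cytb at 3.70 and mt-Atp6 at 3.11, and 83 of the 204 mt-Cytb UMIs and 134 of the 318 mt-Atp6 UMIs of bleomycin were in 1 barcode.

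The genes with the highest ratios over all members were those of the mixed barcodes. Outside the lists, C3 stood at 4.44, Sptbn1 at 3.77, Igfbp7 at 3.51, Sparcl1 at 3.46, Serping1 at 3.18 and Mfap4 at 3.16. In the low-fibroblast members C3 was 0.79, Sparcl1 0.78 and Mfap4 0.37, and Sptbn1 (-0.57) and Serping1 (-1.24) had the opposite sign. The fibroblast marker list went from 3.43 to 0.24, which follows from the filter, since the 4 genes of the filter are in that list. In the list of tissue-retained neutrophils, the cathepsin gene Ctsb was among the higher calls over all members and was -0.58 in the low-fibroblast set. Whether these barcodes were droplets with 2 cells was not tested.

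Ptgs2, which encodes cyclooxygenase-2, an enzyme of prostaglandin synthesis, was past the threshold in the low-fibroblast members and just under it over all members. It had a UMI in 26 of 33 PBS members, at 0 to 7087 CPM per cell (median 767). It had one in 19 of 22 bleomycin members, at 0 to 10014 CPM (median 2092). The ranges overlapped while the median differed. The log2 ratio was 0.88 over all members (95% interval 0.57 to 1.21) and 1.30 in the low-fibroblast members (0.96 to 1.64). It was 0.97 when the bleomycin member with the most Ptgs2 was also left out.

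Genes of the NF-κB and immediate early response, which cells switch on within minutes of a stimulus, were higher as a group in the low-fibroblast members. The list held 24 tested genes. In the low-fibroblast members 5 were higher (6.23% over all genes), 0 lower and 19 between, with a median of 0.63 against 0.00 over all genes tested. The summed level went from 23076 CPM in PBS to 33112 CPM, a log2 ratio of 0.52 (0.43 to 0.61), and was 0.49 without the member that held the most. Over all 22 bleomycin members, however, 1 gene was higher and 2 lower, where 12.7% of all genes were higher and 10.2% lower. The summed ratio there was 0.01 (-0.08 to 0.09). It was -0.65 when looser thresholds (at least 5 and 1 UMIs) let in 6 more bleomycin barcodes and 1 more PBS barcode, so that its direction depended on which barcodes were counted.

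The 5 higher genes were transcription factors and feedback regulators. Junb, a subunit of the AP-1 transcription factor, was detected in all 33 PBS members, at 491 to 5747 CPM per cell (median 2300), and in 15 of the 16 low-fibroblast bleomycin members, at 0 to 11092 CPM (median 3206). The upper end was higher after bleomycin but the ranges overlapped. The ratio was 0.49 over all members and 1.04 (0.76 to 1.32) in these. Fos, its partner, stood at 0.71 and 1.23 in the 2 sets, Zfp36, which degrades cytokine mRNAs, at 0.83 and 1.36, Klf2 at 0.87 and 1.19, and the phosphatase gene Dusp2 at 1.20 and 2.03. Without the single member that held the most of each, Zfp36 was 0.74, Klf2 0.65, Fos 0.89 and Junb 0.88, all under the threshold, and Dusp2 was 1.30. For Zfp36 and Dusp2 that member was the barcode with 12.3% mitochondrial UMIs, which held 42 of 102 and 12 of 26 UMIs and also 12 of 34 of Csf1, 16 of 32 of Ccl3 and 32 of 152 of Ptgs2. Without it and the mixed barcodes the NF-κB list was 0.49, the cytokine list 0.45 and Ptgs2 1.09 (0.74 to 1.46). Jund, another AP-1 subunit, went the other way at -1.02 and -0.64.

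**Figure D3:**
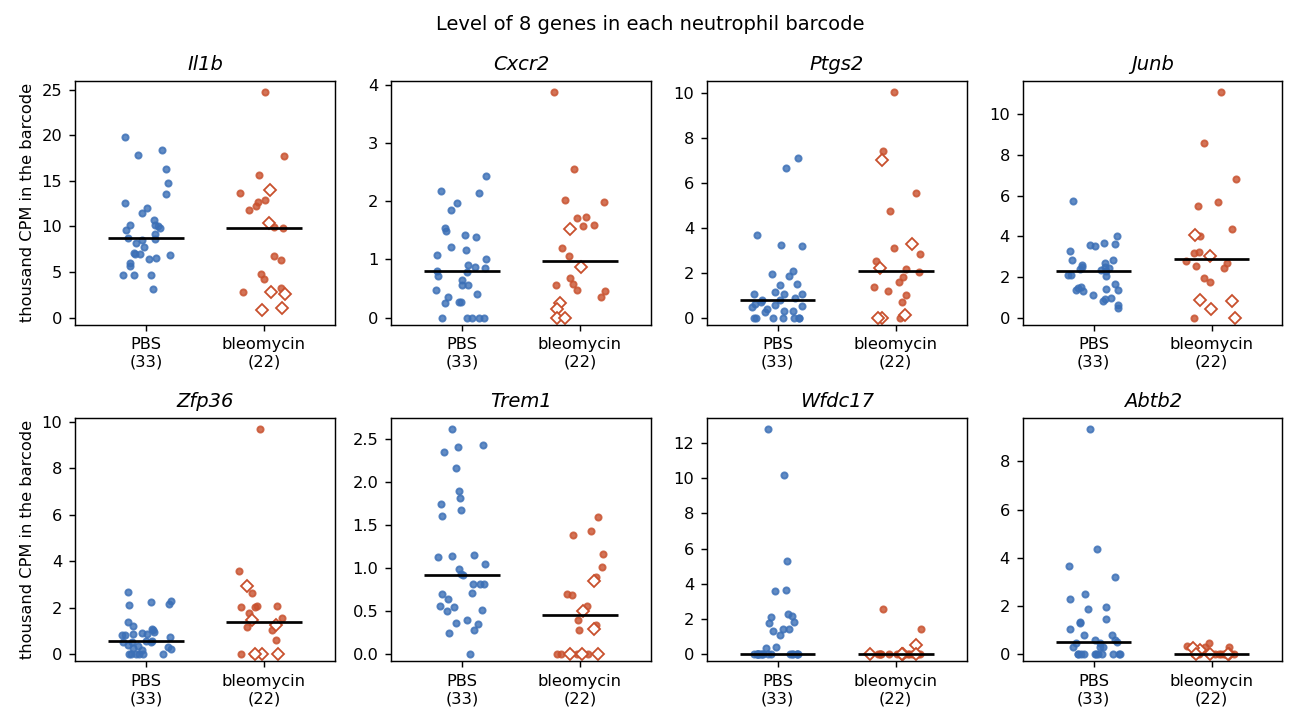
Each point is 1 neutrophil barcode, with the gene's level on the vertical axis, as CPM of that barcode divided by 1000 (linear, a separate scale per gene). Diamonds are the 6 bleomycin members with fibroblast RNA and black lines are medians over all members of a library. Ptgs2 has medians of 767 and 2092 CPM, whereas Wfdc17 is seen in 16 of 33 PBS and 3 of 22 bleomycin members.

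Among secreted signals some high values came from few cells. Of 10 tested genes of the cytokine and chemokine list, 4 were higher and 0 lower in the low-fibroblast members (median 0.68), where 6.23% of all genes were higher. Over all members 4 of 11 were higher and 0 lower (median 0.28), where 12.7% of all genes were higher. The higher genes in the low-fibroblast set were Ptgs2, Ccl3, Ccl4 and Csf1. The summed list had a ratio of 0.52 in these members but 0.26 (0.14 to 0.38) without the 1 cell that held the most, and -0.01 over all members.

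The chemokine genes Ccl3 and Ccl4, whose products attract monocytes and T cells, were seen in few cells. Ccl4 had 46 UMIs in bleomycin, of which 40 were in 1 of the 2 cells that had any, and 10 UMIs in 3 PBS cells. Its ratio of 2.45 (3.29 in the low-fibroblast members) dropped to 0.53 without that cell. Ccl3 had 32 UMIs in 3 bleomycin cells and 5 UMIs in 3 PBS cells, with ratios of 2.80 and 3.64. Without the bleomycin cell that held 16 of them its ratio was 2.79 (1.53 to 4.85). That value still rested on 1 other bleomycin cell, which held 15 Ccl3 UMIs. Cxcl2, a neutrophil chemoattractant that neutrophils also make, was found in 21 of 33 and 11 of 22 members. Its ratio was 0.57 in the low-fibroblast set and -0.72 without the 1 cell that held 67 of its 108 UMIs. Csf1, the macrophage growth factor, was broader, with 47 UMIs in 9 of 22 bleomycin members against 26 in 12 of 33, and ratios of 1.19 and 1.57.

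Il1b was at much the same level in both libraries. It was detected in every member, at 3104 to 19798 CPM per cell in PBS (median 8677) and 840 to 24751 in bleomycin (median 9860). The ratio was -0.31 (-0.45 to -0.17) over all members and 0.20 (0.05 to 0.36) in the low-fibroblast members, so that its sign depended on the mixed barcodes. Cxcr2 also changed sign, from -0.06 to 0.48 (0.01 to 0.95). G0s2, an inhibitor of fat breakdown, was 0.09 and 0.52.

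**Figure D4:**
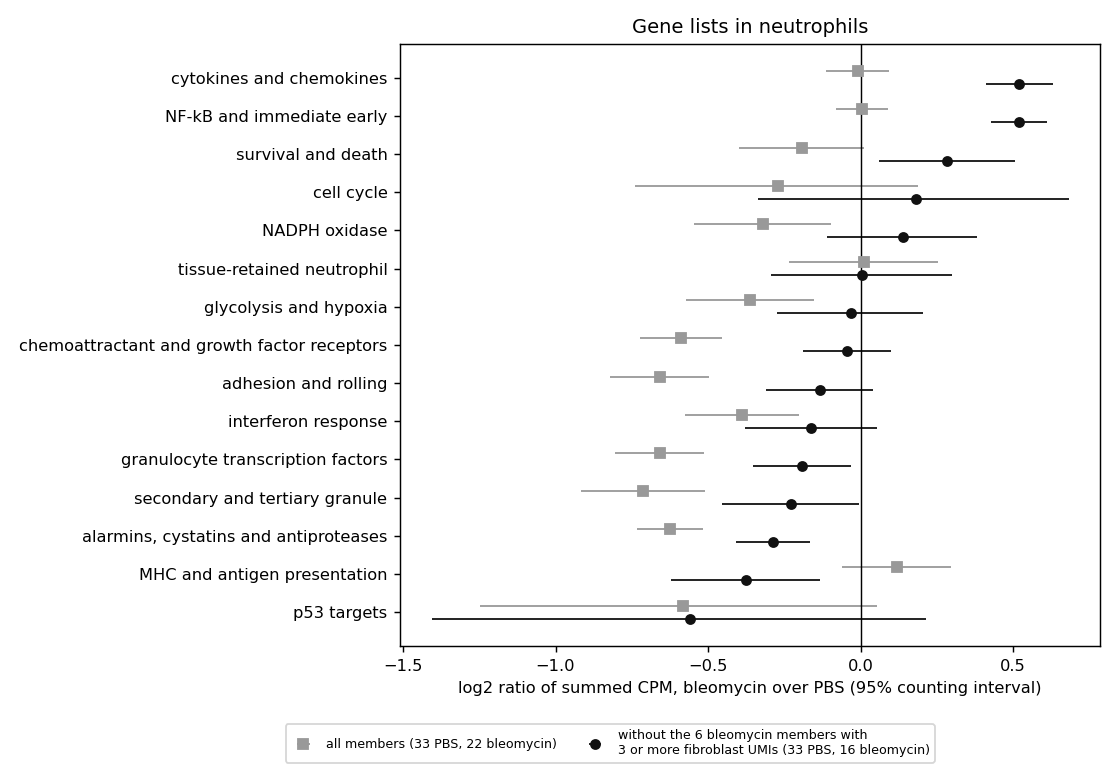
Points are log2 ratios of the summed CPM of 15 gene lists, bleomycin over PBS, with 95% counting intervals; gray squares are all members (33 PBS, 22 bleomycin) and black circles leave out the 6 bleomycin members with at least 3 fibroblast UMIs. The cytokine and NF-κB lists stand at 0.52 in the smaller set, and most gray squares lie to the left of their circles.

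Wfdc17, which encodes a small secreted protein of the whey acidic protein family, had the lowest ratio of any listed gene over all members. It had 172 UMIs in 16 of 33 PBS members, up to 44 in 1 cell, and 15 UMIs in 3 of 22 bleomycin members. The levels were 1570 CPM (1344 to 1823) and 177 CPM (99.1 to 292). The log2 ratio was -3.08 (-4.02 to -2.39) over all members and -2.46 (-3.44 to -1.69) in the low-fibroblast members. In the latter 1 bleomycin cell held 9 of 13 UMIs, and without it the ratio was -3.95 (-5.98 to -2.71). No PBS cell was left out in that setting. After each cell was thinned to 1000 UMIs it was found in 12 of 32 and 2 of 20 members. Wfdc17 lies at 83703991 to 83706268 on chromosome 11, next to the chemokine genes Ccl6 (83587882 to 83593087), Ccl3 (83647844 to 83649355) and Ccl4 (83662584 to 83664683). Ccl6, with ratios of -0.69 and -0.06, was between the thresholds, and Ccl3 and Ccl4 had ratios of the opposite sign.

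Other genes were lower by similar factors in both sets. Abtb2, an ankyrin repeat and BTB domain gene, had 122 UMIs in 22 of 33 PBS members and 11 UMIs in 7 of 22 bleomycin members, a ratio of -3.01 (-4.14 to -2.21) over all and -3.03 in the low-fibroblast members. Morrbid, a long noncoding RNA known to prolong the life of myeloid cells by repressing the death gene Bcl2l11, had 69 UMIs in 19 members against 6 in 2, with ratios of -2.98 and -2.46. Bcl2l11 itself, at 14 and 7 UMIs, had ratios of -0.57 and 0.00. Slfn4, a schlafen gene induced by interferon, had 40 UMIs in 15 members against 6 in 5, with ratios of -2.21 and -1.98. Outside the lists, Btbd9 (-1.99 and -1.59), N4bp1 (-1.91 and -1.76), Cdk2ap2 (-1.68 and -1.82) and Wnk1 (-1.47 and -1.38) were also lower in both.

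The list of alarmins, cystatins and antiproteases, to which Wfdc17 belongs, was also lower as a sum. Of its 12 tested genes, 4 were lower and 1 higher over all members, and 3 lower and 1 higher in the low-fibroblast members, with medians of -0.77 and -0.44. Over all genes 10.2% and 6.54% were lower. The summed ratio was -0.62 (-0.73 to -0.52) and -0.29 (-0.41 to -0.16), but 0.66 with the looser thresholds, where Lyz2 was 2.40. Lyz2, the myeloid lysozyme gene, was found in 28 of 33 and 13 of 22 members, with ratios of -1.20 and -1.24 (-0.64, no longer past the threshold, with the 1% filter), and Asprv1, a skin and granulocyte protease, stood at -1.10 and -1.24. S100a11 was -0.83 and -0.46, whereas S100a6 was -0.22 and 0.08. The 1 higher gene was Cstb, the protease inhibitor cystatin B, at 2.63 and 3.07. It had 33 UMIs in 10 bleomycin members, 19 of them in 1 cell, and without that cell its ratio was 1.18 (-0.59 to 3.22) in the low-fibroblast set.

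Receptors through which neutrophils sense their surroundings were lower over all members but not as a group in the low-fibroblast set. Of 21 tested receptor genes 6 were lower and 0 higher over all members, and 0 of 20 lower and 1 higher in the low-fibroblast set. Over all genes tested 10.2% were lower in the first set, and 6.54% were lower and 6.23% higher in the second. The summed ratio was -0.59 (-0.72 to -0.45) and -0.04 (-0.19 to 0.10). Trem1, an amplifier of inflammatory signals, was found in 32 of 33 and 15 of 22 members, with ratios of -1.46 (-2.08 to -0.93) and -0.80 (-1.44 to -0.23). Fpr1, the receptor for bacterial formyl peptides, had 41 and 9 UMIs and ratios of -1.72 and -0.93, and C5ar1, for the complement fragment C5a, -1.35 and -0.90. Csf2rb, the common β chain of the GM-CSF receptor, was the 1 higher gene at 0.65 and 1.18, with 21 and 26 UMIs, and was 0.80 in the low-fibroblast set without the member that held the most.

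Adhesion genes, which govern rolling and passage through the vessel wall, followed the receptors. Of 11 tested, 2 were lower over all members and 1 in the low-fibroblast set. Over all genes 10.2% and 6.54% were lower, and counts this small were not read as a difference. The summed ratios were -0.66 and -0.13. The hyaluronan receptor Cd44 was -1.02 and -0.40 and Icam1, at 20 and 3 UMIs, -2.08 and -1.38. Granule genes showed the same shift, with 2 of 7 lower over all members (Lcn2 at -1.28 and Pglyrp1 at -1.19) and 0 of 7 in the low-fibroblast set (-0.87 and -0.88). Cebpb, a transcription factor of the stimulated granulocyte and a member of the transcription factor list, was -1.04 and -0.67 (-0.93 to -0.42). That list had 2 of 10 genes lower over all members and 0 of 9 in the low-fibroblast members, with summed ratios of -0.66 and -0.19. The 6 tested neutrophil markers outside the rule, of which Trem1 alone was lower over all members, had summed ratios of -0.26 and 0.26, and -1.10 with the looser thresholds.

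In the remaining lists few genes passed the thresholds, where over all genes tested 12.7% were higher and 10.2% lower over all members, and 6.23% and 6.54% in the low-fibroblast set. The 5 tested NADPH oxidase genes, whose products make superoxide, were all between the thresholds in both sets, with summed ratios of -0.32 and 0.14 (0.079 with the looser thresholds). The interferon list was -0.39 and -0.16 (-1.12 with the looser thresholds), with 2 of 9 tested genes lower over all members, Slfn4 and Oasl2, and 1 of 8 in the low-fibroblast set, Slfn4. Within it Isg15, a ubiquitin-like protein, was found in 21 of 33 and 7 of 22 members, yet its ratios were -0.28 and 0.36 because 1 bleomycin cell held 20 of 31 UMIs. Survival genes were -0.19 and 0.28 (-0.68 with the looser thresholds), with 1 of 8 lower over all members, and 1 of 7 lower and 1 higher in the low-fibroblast set. Among them the inflammatory caspase Casp4 was lower at -1.61 and -1.51, on 22 and 5 UMIs, and the stress gene Gadd45a was 0.35 and 1.18, on 19 and 19 UMIs, or 0.64 in the low-fibroblast set without the 1 cell that held 7. Glycolysis and hypoxia genes were -0.36 and -0.03, with 1 of 11 genes lower over all members (Slc16a3, a lactate transporter, at -1.05 and -0.64). In the low-fibroblast set 1 of 11 was higher and 1 lower, near the shares over all genes. The lower one was the aldolase gene Aldoa, at -0.72 and -1.15, and the higher one the glucose transporter Slc2a3, at 0.46 and 1.13. Without the 1 cell that held 21 of 38 Slc2a3 UMIs the latter was 0.079. Genes of tissue-retained neutrophils were 0.01 in both sets but 1.69 with the looser thresholds. Of 9 tested, 2 were higher and 1 lower over all members, and 0 of 8 passed in the low-fibroblast set, and among them Cd14, the lipopolysaccharide coreceptor, was -1.11 and -0.85, found in 22 of 33 and 7 of 22 members. In the p53 target list, Sesn2 (-1.26 and -0.50) and Fas (-1.18 and -1.31) were the only tested genes, on 5 and 6 bleomycin UMIs, and the sum was -0.58 and -0.56 with intervals that held 0, and 0.33 with the looser thresholds. The sum of the cell cycle list was -0.27 and 0.18, and Hmgb2, a chromatin protein gene, held 95 of its 103 PBS UMIs. The MHC list was 0.12 over all members, -0.37 (-0.62 to -0.13) in the low-fibroblast members and 0.74 with the looser thresholds. Of all bleomycin UMIs, 64 of 160 for the class I gene H2-D1 and 70 of 148 for its partner B2m were in the deepest mixed barcode.

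Macrophages and monocytes (65 PBS and 191 bleomycin barcodes with at least 5 UMIs of macrophage genes such as Csf1r and C1qa) and T cells (118 and 85 with at least 3 UMIs of the Cd3 genes) of the same libraries were set beside the neutrophils. Fibroblast markers made up 1.80% and 2.30% of the UMIs of macrophages and monocytes and 1.68% and 3.70% of those of T cells, in PBS and bleomycin. For this reason the same filter of under 3 UMIs of Pdgfra, Col1a1, Col1a2 and Col3a1 was applied to them, which kept 36 and 49 macrophages and monocytes and 96 and 56 T cells. Fibroblasts cannot be filtered in this way and were not compared. No test of a difference between cell groups was possible with 1 library each.

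The ratio of the NF-κB and immediate early list in the other cells depended on the filter. The list stood at 0.52 (0.43 to 0.61) in the neutrophils, at 0.05 (-0.02 to 0.12) in macrophages and monocytes and at 0.31 (0.20 to 0.41) in T cells. Without the filter it was -0.44 and -0.42 in these 2 groups and 0.01 in the neutrophils. With the filter the ratio changed sign in both groups, but the interval of macrophages and monocytes held 0. The filter also changed the median depth of macrophages and monocytes, from 13658 (PBS) and 6220 (bleomycin) UMIs to 8983.5 and 8782. The part of depth in the change was not tested. Zfp36 was 1.36 in neutrophils and 0.98 (0.70 to 1.32) in macrophages, and Junb was 1.04 and 0.63 (0.43 to 0.83) (without the filter -0.26 and -0.25 in macrophages). Klf2 was 1.19 in neutrophils, 0.93 in T cells and -0.83 (-1.37 to -0.40) in macrophages. Without the filter Klf2 was 0.87 in neutrophils and -1.18 in macrophages, and in T cells it had the opposite sign, at -0.51 (-0.77 to -0.28). The cytokine list rose further in the other cells than in neutrophils. With the filter it was 0.52 in neutrophils, 2.62 in macrophages and monocytes and 1.496 in T cells. Without the filter the cytokine list was -0.01 in neutrophils, 2.099 in macrophages and monocytes and 4.01 in T cells.

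Wfdc17 differed in direction between neutrophils and macrophages with and without the filter. With it, macrophages and monocytes had 113 UMIs in PBS and 420 in bleomycin, a log2 ratio of 1.51 (1.24 to 1.85), against -2.46 in the neutrophils. Without it the ratios were 2.19 and -3.08. In all barcodes of each group its level in PBS was 1570 CPM in neutrophils and 174 CPM in macrophages, and in bleomycin 177 and 831 CPM, so the order of the cell types turned over. Lyz2 was 1.48 (1.43 to 1.53) in filtered macrophages, against -1.24 in the neutrophils. In T cells Lyz2 was 4.55 without the filter, on 5 UMIs in PBS and 287 in bleomycin, but had only 4 and 2 UMIs with it. The list of alarmins, cystatins and antiproteases was -0.29 in neutrophils, 1.18 in macrophages and 1.66 in T cells, and S100a11 was -0.46, 0.32 and 1.78. Lyz2 is in this list and supplied 3799 of its 5778 UMIs in PBS macrophages and 13560 of 16700 in bleomycin macrophages. The 1.18 therefore largely repeats Lyz2. The secondary and tertiary granule list was -0.23 in neutrophils and -0.15 (-0.28 to -0.03) in macrophages with the filter, and 0.51 in macrophages without it. In T cells it was 1.73 with the filter and 3.69 without. Cebpb was -0.67 in neutrophils and -0.53 in macrophages. Intervals of single genes are for ratios with nothing added.

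**Figure D5:**
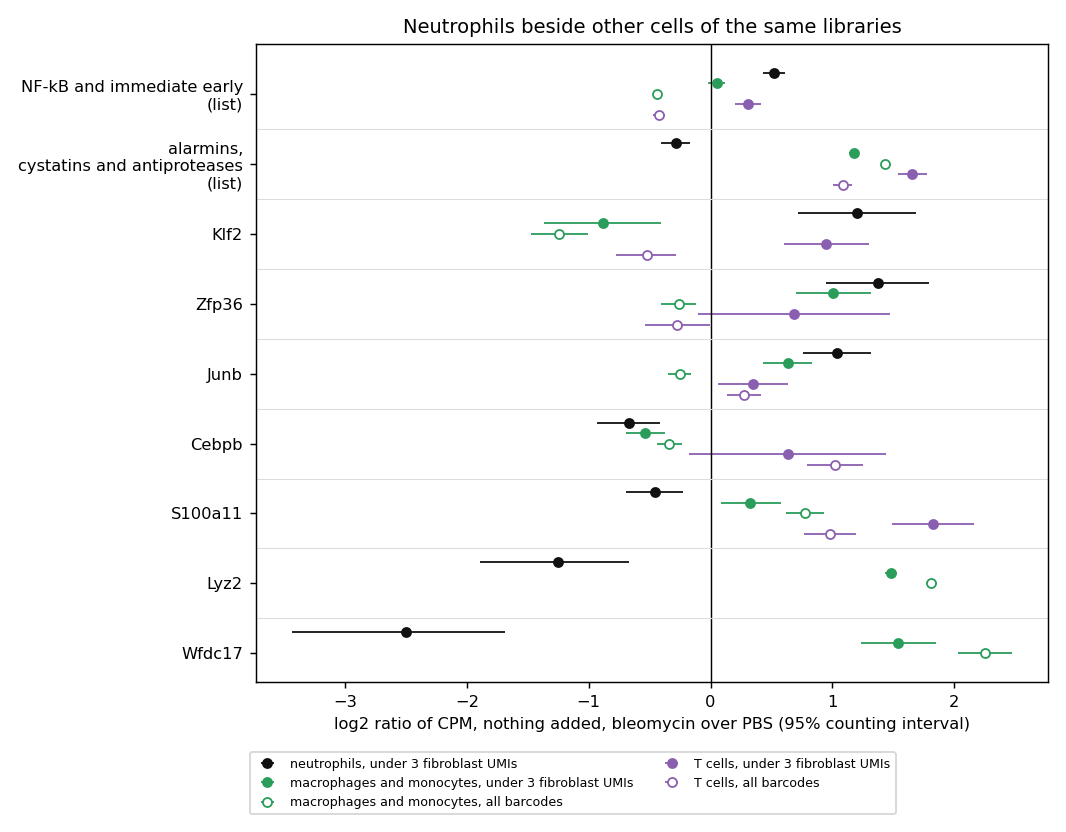
Points are log2 ratios of CPM, bleomycin over PBS with nothing added, with 95% counting intervals, in neutrophils (33 and 16 barcodes), macrophages and monocytes (36 and 49) and T cells (96 and 56) with under 3 fibroblast UMIs (filled), and in all macrophages and monocytes or T cells (open); groups under 20 CPM in either library are not drawn. For the NF-κB list and Zfp36 the open points lie left of 0 and the filled ones right of it. The filled intervals of the list in macrophages and monocytes and of Zfp36 in T cells hold 0. For Wfdc17 and Lyz2 macrophages lie on the other side of 0 from neutrophils either way.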

How the data were processed

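Each deposited table held UMI counts per gene and barcode (32285 gene rows in the repetitive libraries), which the authors made with Cell Ranger 3.0.1 on GRCm38 (mm10) and deposited without normalization. The submitters' processing notes also name Seurat 3. The rule was applied to all 6 libraries. UMIs were summed over the members of each library (109551 in PBS and 84692 in bleomycin, where 1 UMI was 9.13 and 11.8 CPM). Intervals are exact at 95% (Clopper-Pearson for shares, Poisson for levels, conditional binomial for ratios with nothing added). The members and gene lists were chosen with earlier results of these data known. Named genes were those of the rule, per list the 2 with most UMIs and the 2 highest and 2 lowest ratios (at least 20 UMIs), outside the lists the 10 highest and 10 lowest (at least 50 UMIs in at least 10 members, without mitochondrial, ribosomal protein, hemoglobin and immunoglobulin genes), the 15 with most UMIs, the top marker of each other cell type, and Pdgfra, Xist and Ddx3y. Other genes were named after their values were seen. Gene positions are from GENCODE M21. Python 3.11.15, numpy 2.4.6, scipy 1.17.1, pandas 2.3.3 and matplotlib 3.10.9 were used, and the scripts were tested on simulated data.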

Additional observations from a re-analysis of the deposited data

Results flagged for a closer look

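In 1 gene list and 2 of its genes, the low-fibroblast neutrophils and other cells of the same libraries went opposite ways. The same filter on fibroblast UMIs was used, and the counting intervals lay on either side of 0. Both genes, Wfdc17 and Lyz2, are in the list, so these results overlap. In filtered macrophages and monocytes Lyz2 supplied 3799 of 5778 list UMIs in PBS and 13560 of 16700 in bleomycin. In T cells it supplied 4 of 830 and 2 of 1686. The list was not summed without the 2 genes. The list was compared with macrophages and monocytes and with T cells, and genes with macrophages and monocytes, where both ratios had to be past 1. Klf2 (1.19 in neutrophils and -0.83 in macrophages), Ptgs2 (1.30 and -0.84) and S100a11 (-0.46 and 0.32) also had intervals on either side of 0. They were not flagged because their macrophage ratios were not past 1. Besides this list, the NF-κB, cytokine and granule lists were looked at, and marker lists were not. With the filter the cytokine list was higher in all of these cells, and less so in neutrophils (0.52) than in macrophages and monocytes (2.62) or T cells (1.496). The NF-κB list went the opposite way in both other groups while these were unfiltered (-0.44 and -0.42), but not with the filter (0.05 and 0.31). The granule list, -0.23 in neutrophils, was 0.51 and 3.69 unfiltered, and -0.15 and 1.73 with the filter. The difference between cell groups was not tested, these results were picked after the values were seen, and each condition is 1 library. The neutrophil log2 ratio was -0.29 for the alarmin, cystatin and antiprotease list, against 1.18 and 1.66, -2.46 for Wfdc17, against 1.51, and -1.24 for Lyz2, against 1.48. With the filter at 1% of fibroblast marker UMIs they were -0.22, -2.45 and -0.64. With looser member thresholds and the mixed barcodes kept, the alarmin list was 0.66 and Lyz2 2.40.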

How the results depend on the processing

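No paired analysis was possible because each condition is 1 library. Counting depth limits single genes, since 1 UMI was 9.13 CPM in PBS and 11.8 CPM in bleomycin, and 1 cell can decide a value. Of 163 list values under other settings 91 lay within the counting interval of the reported value, and of 1281 values of named genes 1074 did. The neutrophil share was 9.09% in PBS and 1.84% in bleomycin among barcodes with a UMI of Ptprc, Tyrobp or Laptm5. The 203 higher and 163 lower genes became 80 and 84 without the mixed barcodes, 112 and 105 without the deepest members, 495 and 453 with looser thresholds, 70 and 63 among genes with at least 50 UMIs, and 3907 and 846 with at least 1 UMI. Lower genes were 91 with centered ratios (higher genes 255) and 93 with 50 CPM added. Without the 6 mixed barcodes, summed list ratios were granule -0.23, receptors -0.044, adhesion -0.13, NADPH oxidase 0.14, cytokines 0.52, interferon -0.16, NF-κB 0.52, survival 0.28, glycolysis -0.033, alarmins -0.29, transcription factors -0.19, MHC -0.37, neutrophil markers 0.26 and fibroblast markers 0.24. With equal weight for each barcode, summed list ratios were granule -0.45, receptors -0.27, adhesion -0.27, cytokines 0.21, NF-κB 0.27, alarmins -0.44, transcription factors -0.32, MHC -0.19, neutrophil markers 0.085 and fibroblast markers 2.46. Without the deepest member of each library, summed list ratios were granule -0.46, receptors -0.27, adhesion -0.34, cytokines 0.32, NF-κB 0.30, survival 0.058, alarmins -0.39, transcription factors -0.36, MHC -0.36, neutrophil markers 0.029 and fibroblast markers 2.17. With stricter thresholds (at least 20 and 4 UMIs), summed list ratios were receptors -0.44, cytokines 0.12, NF-κB 0.12, alarmins -0.51 and neutrophil markers -0.11. With looser thresholds (at least 5 and 1 UMIs), summed list ratios were receptors -1.01, NADPH oxidase 0.079, cytokines 0.29, interferon -1.12, NF-κB -0.65, survival -0.68, tissue-retained 1.69, alarmins 0.66, transcription factors -1.06, p53 targets 0.33, MHC 0.74, neutrophil markers -1.10 and fibroblast markers 2.60. With ratios centered on their median, summed list ratios were receptors -0.39, adhesion -0.46, cytokines 0.19, interferon -0.19, NF-κB 0.20, alarmins -0.43, transcription factors -0.46, MHC 0.32 and neutrophil markers -0.061. Leaving out, beside the mixed barcodes, the bleomycin member with the most UMIs of a list was chosen after seeing the data, and gave 0.26 for cytokines and 0.49 for NF-κB. So was leaving out, beside the mixed barcodes, the member above 10% mitochondrial UMIs, which gave 0.45 and 0.49, and leaving out members above 1% fibroblast marker UMIs, which gave NF-κB 0.51, cytokines 0.55, alarmins -0.22, granule -0.27, neutrophil markers 0.25 and fibroblast markers 0.30. Without the mixed barcodes 32 of 111 named genes with at least 20 UMIs changed sign, of which 5 had been past the threshold, Ctsb (-0.58), Zbtb20 (-1.18), Tmsb10 (-0.49), Serping1 (-1.24) and Sptbn1 (-0.57). Lyz2 was 2.40 with looser thresholds. The cause was not tested.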
